A study of Mus musculus with 3 samples.

Results

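The mitochondrial ribosomal protein genes are the protein-coding genes whose symbols begin with Mrpl or Mrps followed by a digit, and 78 of the 55536 annotated mouse genes in the tables met that rule. The rule used only the name and the annotated type, not any measured value. By published ribosome structures 51 of the proteins belong to the large subunit and 26 to the small subunit. Mrps30 and Mrps18a were placed in the large subunit despite their symbols, and Mrps36, now known as a subunit of the 2-oxoglutarate dehydrogenase complex, was placed in neither.

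The data are 3 libraries of total RNA, depleted of ribosomal RNA, from macrophages grown out of C57BL/6J bone marrow. Lipid A, the part of lipopolysaccharide that activates Toll-like receptor 4, had been given at 100 ng/ml for 60 min, and the cytosolic fraction was taken. All 3 libraries form 1 group, replicates 1 to 3, each from 1 µg of RNA, so no response to lipid A was measured and levels are described within this one state. Whether each culture came from its own mouse was not given, and the p-values reflect only the spread between these libraries, part or all of which may be technical.

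Mitochondria keep a ribosome of their own, which translates the few messages of mitochondrial DNA into core subunits of the respiratory chain and ATP synthase. Its ribosomal RNAs are made inside the organelle, whereas every one of its proteins is encoded in the nucleus, translated on cytosolic ribosomes and imported. A share of these proteins descends from bacterial ribosomal proteins, and the others joined the complex during the evolution of mitochondria.

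Annotated genes received 63944236, 71989793 and 69305836 expected counts in replicates 1, 2 and 3. The signal recognition particle RNA genes Rn7s1 and Rn7s2 held 57.1, 69.6 and 62.2% of all TPM (an abundance scaled by transcript length and summing to the same total in each library), and every other gene's TPM was lower for it. Levels were therefore read against each library's own median tested gene, which lay at 9.08, 5.76 and 6.86 TPM. All 6 macrophage markers lay above that gene, led by Lyz2 (lysozyme) at 5032 TPM. The defining markers of T and NK, B, erythroid and stromal cells each averaged under 1 TPM, and the globin genes Hbb-bs and Hba-a1 were listed at 0 in all 3 libraries. Of 5 neutrophil markers, S100a8, S100a9 and Ngp averaged 10.1, 15.9 and 1.92 TPM, whereas Elane and Mpo averaged 0.16 and 0.113 TPM. The nuclear RNA Malat1 stood at 417, 122 and 323 TPM. The part of the neutrophil and nuclear RNA levels in the results below was not tested.

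All 78 members were detected in every library, with 225 to 2356 counts per member and library, and all 78 averaged at least 1 TPM, the minimum for testing. Their median was 8.81, 6.28 and 7.02 TPM in replicates 1, 2 and 3, beside 9.08, 5.76 and 6.86 TPM for the median of the 9123 tested protein-coding genes. The set thus sat at the middle of the protein-coding genes of at least 1 TPM, a position that the minimum sets. Without it the median gene fell by 1.56 on the log2 scale, and with a minimum of 5 TPM it was 0.93 higher. In RNA from many cells, fewer cells with a transcript and less of it per cell cannot be told apart.

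The members also lay close together. On average over the libraries 54 of 78 members (69.2%) were within 2-fold of the median gene, against 42.5% of all tested protein-coding genes. The range from the 10th to the 90th percentile spanned 5.14-fold among members, against 3.64-fold among the 76 cytosolic ribosomal protein genes and 23.8-fold among all tested genes. In counts, which are not scaled by length, it was 3.27, 3.14 and 3.10-fold among members in replicates 1, 2 and 3. Cytosolic genes then spanned 3.01, 3.40 and 3.37-fold and all tested genes 32.6, 31.1 and 29.7-fold. From the highest member, Mrps21 at a mean of 70.0 TPM, to the lowest, Mrpl47 at 1.75 TPM, the ratio was 40.0.

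**Figure D1:**
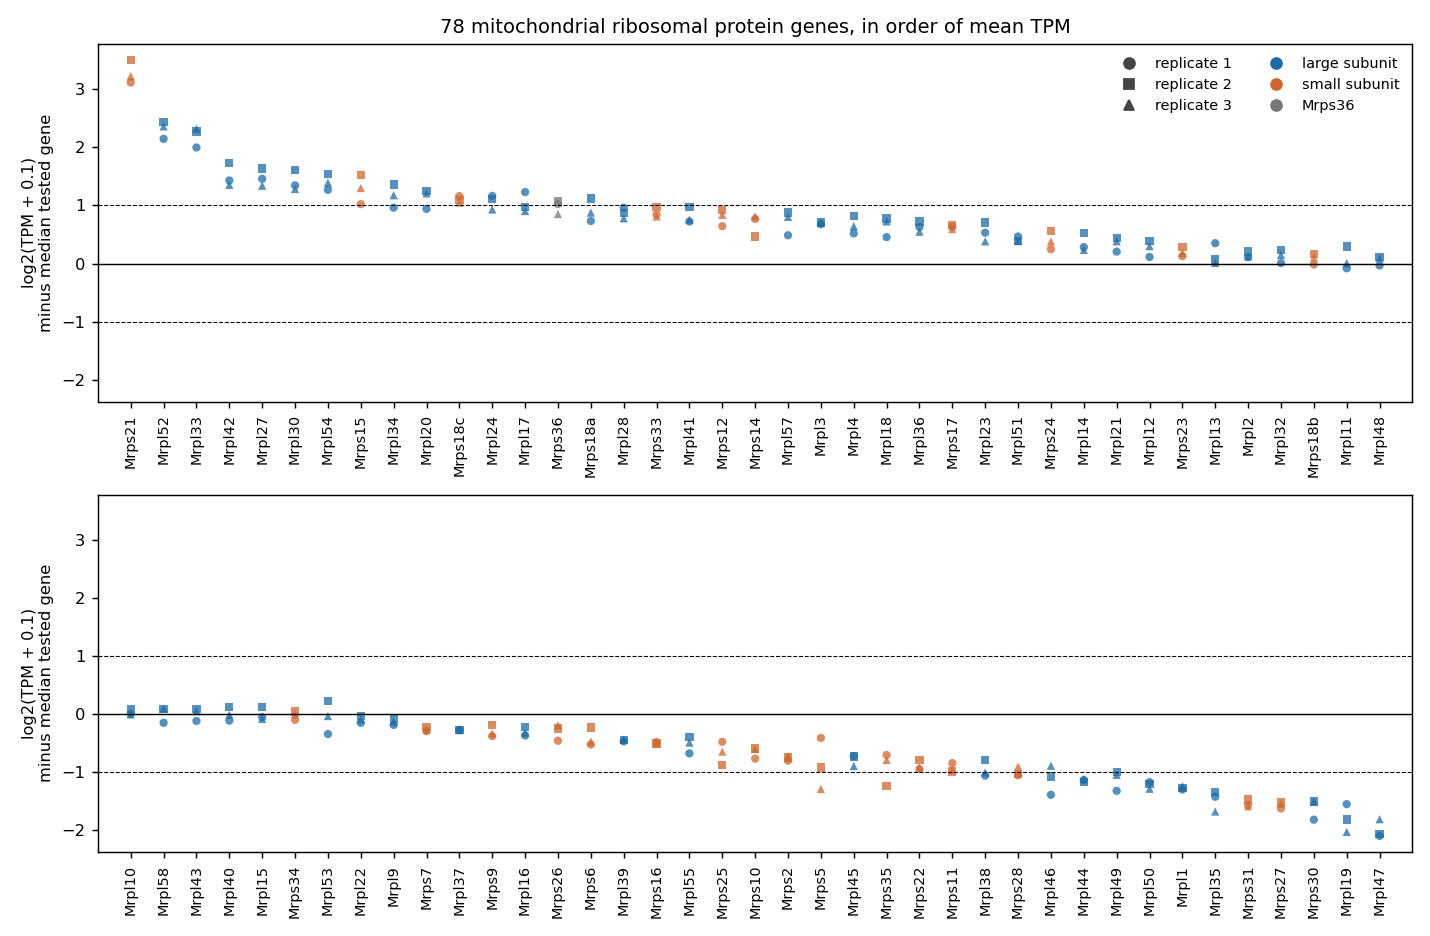
Level of each of the 78 members in each library, as log2(TPM + 0.1) minus the median tested protein-coding gene of that library (y axis), with members in order of mean TPM from left to right and top to bottom. Point shapes are replicates, colours are subunits, the solid line is the median gene and the dashed lines mark a 2-fold band around it. Of the 78 members, 54 have a mean inside the band, and Mrps21 stands apart at the top in all 3 libraries.

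The cytosolic ribosome makes a contrast within the same cells. Medians of the cytosolic ribosomal protein genes were 309, 214 and 199 TPM. On the log2(TPM + 0.1) scale the mitochondrial median lay 5.12, 5.07 and 4.80 below the cytosolic one in replicates 1, 2 and 3. That difference averaged -5.0 ± 0.17 (SD, n = 3), which corresponds to a cytosolic median 31.9-fold above the mitochondrial one. All 76 cytosolic genes were called above the median gene by the test described next. Mitochondrial ribosomal protein genes took 0.0951, 0.0989 and 0.0977% of the counts, against 1.76, 1.87 and 1.56% for the cytosolic ones.

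**Figure D2:**
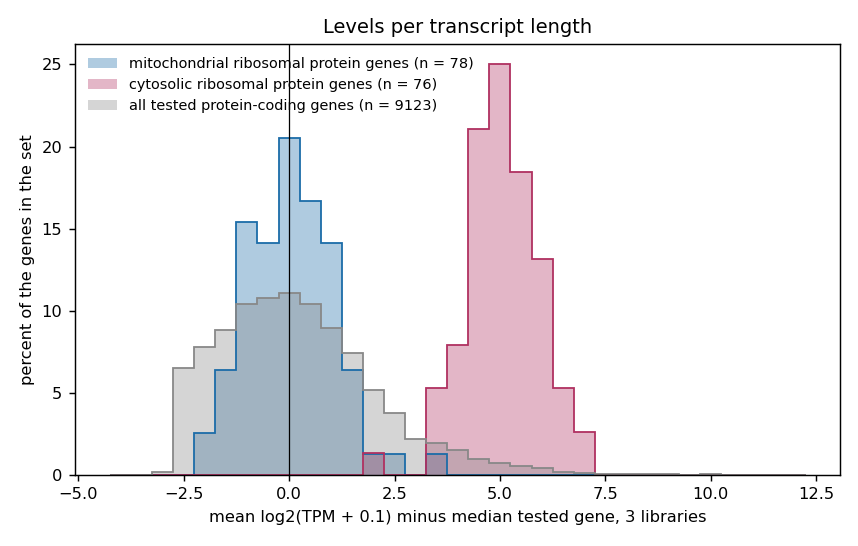
Distribution of the mean level over 3 libraries, as log2(TPM + 0.1) minus the library's median tested gene (x axis), for the 78 mitochondrial ribosomal protein genes, the 76 cytosolic ribosomal protein genes and all 9123 tested protein-coding genes; the y axis is the percent of each set in a bin of 0.5. The mitochondrial set is centred on the median gene and the median of the cytosolic set is 31.9-fold higher.

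Single members were tested against a 2-fold band around the median gene with limma's treat method over all 9123 protein-coding genes, adjusted by the Benjamini-Hochberg method. Among the members 8 lay above the band and 8 below it, and 62 were not called, which does not show that they lay within it. Over all tested genes 26.3% were called above and 24.5% below. At an unadjusted p under 0.05 the same test gave 9 members above and 9 below. With no minimum TPM limma put 54 members above the band and 0 below it. Of the 15075 genes in that setting 35.7% were called above and 39.3% below. The added 0.1 makes the log2 differences of low genes smaller than they are in TPM.

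Of the small subunit, Mrps21 was the highest member, at 79.3, 66.0 and 64.8 TPM in replicates 1, 2 and 3. Its gene (ENSMUSG00000054312.6) lies on the minus strand at chr3:95862634-95871519 of GRCm38, and its protein has a relative in bacterial ribosomes. Its log2 difference from the median gene was 3.28 ± 0.09 (SE; limma adjusted p = 1.3e-06). Every library placed it at more than 1.5 times the TPM of any other member. In counts, which are not scaled by length, it was also highest, at 1733, 2356 and 1927, but by less. Mrpl24 had 1683, 1694 and 1525 counts and Mrps15 1221, 1809 and 1559. The TPM of Mrps21 was shared almost evenly by 2 protein-coding transcripts, one of 488 nt with 52.4% and one of 405 nt with 47.1%.

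The other small-subunit gene above the band was Mrps15, another protein of bacterial descent, at 18.5, 16.8 and 17.0 TPM. It lay 1.28 ± 0.10 (SE) above the median gene (limma adjusted p = 0.029). This call was lost when replicate 2 was left out, at 1.16 (adjusted p = 0.15), and when replicate 3 was left out, at 1.27 (adjusted p = 0.069). It was also lost with a pseudocount of 1 (adjusted p = 0.079), with kallisto's TPM and its own filter at 0.92 (adjusted p of 1) and with a minimum of 5 TPM (adjusted p of 1).

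Below the band were Mrps27 and Mrps31, both specific to mitochondria. Mrps27, which encodes an RNA-binding protein of the pentatricopeptide repeat family, stood at 2.88, 1.95 and 2.30 TPM, a difference of -1.56 ± 0.06 (SE, limma adjusted p = 0.00017). Mrps31 stood at 3.01, 2.02 and 2.22 TPM, a difference of -1.54 ± 0.07 (SE, limma adjusted p = 0.00022). In all 3 libraries both were under the library's median gene by more than 2-fold.

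Mammals carry a trio of nuclear genes related to bacterial ribosomal protein S18, and their products take different places in the mitochondrial ribosome. Mrps18c had 20.4, 12.4 and 14.3 TPM, and Mrps18a, whose protein sits in the large subunit, had 15.1, 12.6 and 12.7 TPM. Mrps18b had 8.97, 6.45 and 7.37 TPM. Mrps18b was the lowest of the trio in every library, the other two changed places between libraries, and none was called outside the band (limma adjusted p of 0.12 for Mrps18c, the smallest of the trio).

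In the large subunit the members above the band were Mrpl52, Mrpl33, Mrpl42, Mrpl27, Mrpl30 and Mrpl54. Mrpl52, a mitochondria-specific protein, had 40.5, 31.4 and 35.6 TPM, or 2.31 ± 0.08 (SE) above the median gene (limma adjusted p = 6.5e-06). Mrpl33, of bacterial descent, followed at 36.5, 28.2 and 34.6 TPM, or 2.20 ± 0.08 above it (limma adjusted p = 1.3e-05). These 2 genes came next after Mrps21 in every library, Mrpl52 always before Mrpl33, and Mrpl33 stayed above Mrpl42 and Mrpl27 in each.

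Mrpl27, whose bacterial counterpart lies at the peptidyl transferase centre, had 25.1, 18.1 and 17.5 TPM. Mrpl42 had 24.6, 19.3 and 17.7 TPM, Mrpl30 had 23.2, 17.7 and 16.8 TPM, and Mrpl54 had 22.0, 17.0 and 18.2 TPM. The order among these 4 genes differed between the libraries, so it was not resolved at 3 replicates. Their differences from the median gene were between 1.40 (Mrpl54) and 1.5 (Mrpl42), with the largest adjusted p among them 0.0021, for Mrpl30 (limma). All 4 calls were lost with kallisto's TPM and its own filter (adjusted p from 0.35 for Mrpl42 to 1 for Mrpl54) and with a minimum of 5 TPM (adjusted p of 1).

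The lowest member was Mrpl47 (ENSMUSG00000037531.8, minus strand, chr3:32725397-32737605), of bacterial descent, at 2.05, 1.31 and 1.89 TPM. Its log2 difference from the median gene was -1.99 ± 0.09 (SE; limma adjusted p = 4.1e-05). Its exons overlap those of Actl6a and Ndufb5 on the opposite strand. The strand setting of the counting was not given in the sources used here, so reads of overlapping genes could not be assigned with certainty.

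Other large-subunit members below the band were Mrpl19, Mrps30, Mrpl35, Mrpl1 and Mrpl50. Mrps30, a mitochondria-specific protein of the large subunit, had 2.51, 1.97 and 2.36 TPM and Mrpl35 had 3.33, 2.22 and 2.08 TPM. Mrpl1, which forms the stalk next to the exit site for transfer RNA, had 3.64, 2.34 and 2.85 TPM. Mrpl50 had 3.98, 2.44 and 2.76 TPM, and its call was lost without replicate 3, at -1.19 (limma adjusted p = 0.057), and with a pseudocount of 1, at -1.02 (limma adjusted p = 0.73). Mrpl1 was named after its value was seen, since its position among the 8 members below was outside the naming rule.

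Mrpl19, of bacterial descent, had 3.04, 1.57 and 1.61 TPM, highest in replicate 1. Its counts were 791, 831 and 886, so the reads did not show the same order as the TPM. This was not particular to Mrpl19. The median tested gene was also highest in TPM in replicate 1, at 9.08, 5.76 and 6.86 TPM. The median count of tested genes was lowest there, at 1917, 2008 and 2040. In Mrpl19 the split between transcripts changed as well. A 419-nt processed transcript held 38.9, 26.7 and 10.8% of the gene's TPM, and the 5000-nt protein-coding transcript held 58.0, 73.3 and 89.2%. Mrps5, named after its values were seen, gave the same picture, with 6.81, 3.00 and 2.75 TPM from 733, 906 and 792 counts. In Mrps5 a 424-nt transcript held 37.5, 16.0 and 7.52% of the TPM. For both genes replicate 1 had the highest TPM, as for the median gene, together with the highest share on the short transcript. The part of that share in the TPM was not tested.

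Mrpl12 forms the flexible stalk that recruits translation factors and is present in several copies per ribosome, whereas most ribosomal proteins are present once. It was named for this reason after its values were seen. Its message had 9.83, 7.60 and 8.46 TPM and was not called outside the band, at 0.27 ± 0.07 (SE) above the median gene.

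The large subunit had the higher median in each library. The large-subunit median was 9.14, 6.78 and 7.34 TPM and the small-subunit median 6.88, 4.90 and 5.56 TPM. On the log2(TPM + 0.1) scale the large subunit was higher by 0.40, 0.46 and 0.39, a mean of 0.42 ± 0.04 (SD, n = 3). Within a subunit the 10th to 90th percentiles of single genes spanned 6.15-fold in the large and 3.86-fold in the small one. Calls were 6 above and 6 below of 51 in the large subunit and 2 above and 2 below of 26 in the small one.

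The 29 mitochondria-specific members had medians of 7.14, 4.84 and 5.99 TPM, against 9.83, 7.07 and 7.62 TPM for the 45 members with a bacterial relative. The difference was -0.46, -0.54 and -0.34 on the log2 scale, a mean of -0.45 ± 0.10 (SD, n = 3). The mitochondria-specific set was lower in each library. The 10th to 90th percentiles of single genes spanned 4.81-fold within it and 4.60-fold among members with a bacterial relative. This difference was not compared in counts, nor was that between the subunits. Both sets held members above and below the band, with 3 above and 4 below among the mitochondria-specific genes and 5 above and 4 below among those with a bacterial relative.

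Members with shorter dominant transcripts had higher TPM. The dominant transcript is the one with the highest share of a gene's TPM, averaged over the libraries. Its median length was 982 nt among members, against 2703 nt over all tested genes. In the 26 members with the shortest dominant transcripts (418 to 783 nt) the median level was 12.2 TPM, and 6 were above the band and 0 below (limma). In the middle 26 (792 to 1226 nt) it was 7.79 TPM, with 2 above and 0 below. In the longest 26 (1288 to 5000 nt) it was 4.21 TPM, with 0 above and 8 below. Each count of 0 above or below the band, here and in the gene lists described last, was also 0 in limma's test at an unadjusted p under 0.05. All 8 members below the band thus had dominant transcripts of 1515 to 5000 nt, and all 8 above had dominant transcripts of 418 to 969 nt. Not all of the TPM below the band lay on long transcripts. In Mrpl47 a 523-nt processed transcript held 40.8, 42.8 and 60.5% of the TPM and led in replicate 3. In Mrpl35 a 707-nt nonsense-mediated decay transcript held 45.7, 44.8 and 36.2%.

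The counts, which are not scaled by length, did not show this fall. Median counts in the short, middle and long members were 764, 801 and 919 per gene. Across the 78 members the Spearman correlation of dominant transcript length with level was -0.62, and across the 9123 tested genes it was -0.13. Genes are not independent replicates, and length enters both quantities because TPM divides by it, so these are descriptions without a test.

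**Figure D3:**
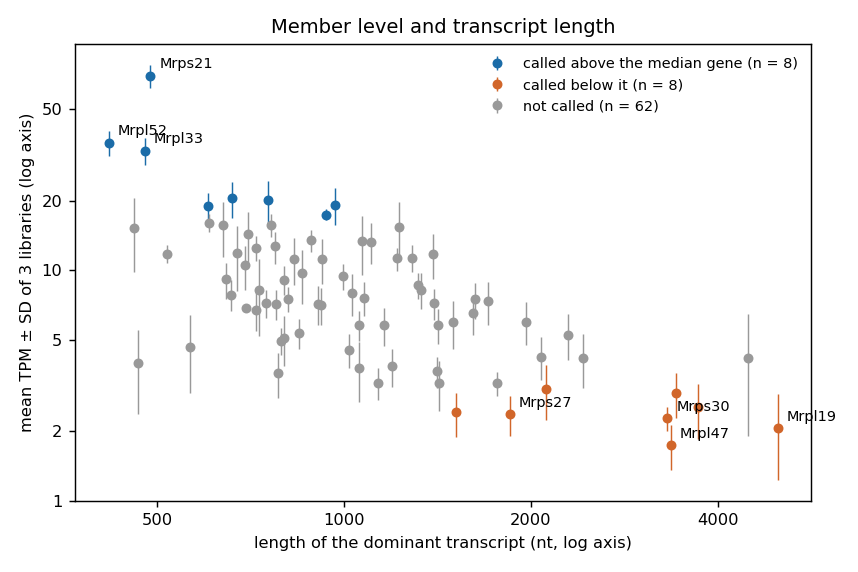
Mean TPM of each member (y axis, log scale, bars ± SD of 3 libraries) against the length of its dominant transcript in nucleotides (x axis, log scale), with the 8 members called above and the 8 called below the median gene coloured. The members called above have dominant transcripts of 418 to 969 nt and those called below have dominant transcripts of 1515 to 5000 nt.

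For 67 of 78 members (85.9%) the dominant transcript was annotated as protein coding, against 95.6% of tested genes. The other 11 were led by a transcript of another type, namely nonsense-mediated decay in 4, processed transcript in 4 and retained intron in 3. These 11 members were named by this property after their values were seen. A transcript annotated for nonsense-mediated decay has an early stop codon and is a candidate for degradation.

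A retained-intron transcript of 519 nt held 94.1, 93.8 and 94.5% of the TPM of Mrpl57 in replicates 1, 2 and 3. A nonsense-mediated decay transcript of 674 nt held 90.5, 84.0 and 87.7% of the TPM of Mrps14, which encodes a small-subunit protein of bacterial descent. The share of the leading transcript averaged 89.8% in Mrps26 (retained intron), 88.1% in Mrps16 (processed transcript) and 80.8% in Mrpl32 (nonsense-mediated decay). It averaged 71.1% in Mrps35, 64.1% in Mrpl15, 63.4% in Mrps25 and 58.4% in Mrpl51. At the other end it was 61.7, 59.3 and 48.8% in Mrpl13 and averaged 46.5% in Mrpl3.

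In 10 of these 11 members the leading transcript was shorter than the best-supported protein-coding transcript. Over all 11 the median lengths of the 2 kinds were 730 and 2999 nt. The exception was Mrpl3, whose leading transcript has 1394 nt. The second quantification of the same libraries, in columns named as kallisto writes them, put the same transcript first in all 3 libraries for 10 of the 11. For Mrpl13 it did so in replicates 1 and 2. In replicate 3 both quantifications put a protein-coding transcript of Mrpl13 first, with 51.15% against 48.76% of the TPM in the main one. The dominant transcript held a median of 92.6% of a member's TPM, against 84.0% for tested genes, and at least 90% of it in 43 members (55.1%), against 41.8%. At least 10% of the TPM fell on transcripts that are not protein coding in 21 members (26.9%) against 25.5% of tested genes.

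**Figure D4:**
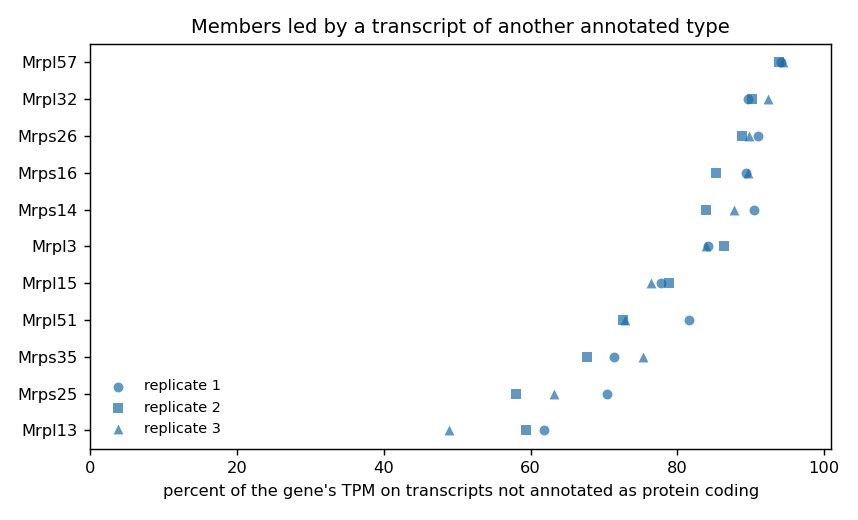
Percent of a gene's TPM on transcripts of a type other than protein coding (x axis) for the 11 members whose leading transcript is of such a type, with one point shape per replicate. For Mrpl57 the value is at least 93.8% in each library, and for Mrpl13 it spans 48.9 to 61.8%.

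One member could not be measured apart from a copy of itself. Mrpl23 (ENSMUSG00000037772.13, chr7:142532686-142540747, plus strand) encodes a large-subunit protein whose bacterial counterpart lies at the exit of the peptide tunnel. Its processed pseudogene Mrpl23-ps1 (ENSMUSG00000075279.5) lies on the minus strand at chr2:74591330-74591909. The 692-nt transcript of Mrpl23, which held 54.8, 45.8 and 55.4% of its TPM, was aligned with the 580-nt pseudogene transcript. They were identical over 540 aligned bases, with 0 substitutions and 0 gap bases. These bases include all 438 coding bases of the 692-nt transcript. A 590-nt protein-coding transcript of Mrpl23, which held 44.5, 54.15 and 44.0%, was not aligned. The first 120 coding bases of the gene and the matching bases of the pseudogene, from GENCODE M21, are shown with the start codon in capitals to let the identity be read directly:
Mrpl23: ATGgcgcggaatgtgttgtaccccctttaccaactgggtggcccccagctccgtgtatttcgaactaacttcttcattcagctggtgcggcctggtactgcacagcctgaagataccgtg
Mrpl23-ps1: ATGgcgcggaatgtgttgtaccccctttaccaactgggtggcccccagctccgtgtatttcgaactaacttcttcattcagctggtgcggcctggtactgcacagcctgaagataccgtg

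The gene tables gave Mrpl23 13.2, 9.45 and 8.97 TPM (528, 602 and 499 counts) and Mrpl23-ps1 11.5, 8.44 and 9.69 TPM (388, 466 and 451 counts). The kallisto tables gave Mrpl23 only 0.895, 1.24 and 1.42 TPM, and Mrpl23-ps1 8.39, 8.16 and 8.54 TPM. Mrpl23 was thus near the median gene in one quantification, at 0.54 ± 0.07 (SE), and called below the band in the other, at -1.77 (limma adjusted p = 0.00083). It was also the only member whose count had a posterior standard deviation, as the gene tables give it, above 5% of the count. The median absolute difference between the quantifications over all 78 members was 0.06 on the log2 scale after centring, and 3 members differed by more than 0.5. Besides Mrpl23, at -1.96, these were Mrpl19 at 0.72 and Mrps5 at 0.58, both named above. Each of the other 4 pseudogenes that carry a member's name had at most 6 counts in any library.

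Variation between the libraries was tested on the counts, with a chi-square test of rounded expected counts against effective library sizes over 13026 genes, adjusted by the Benjamini-Hochberg method. Counts varied beyond counting error in 44 of 78 members (56.4%), against 62.5% of all genes tested. Among protein-coding genes within the members' abundance range it was 57.9%. With all 3 libraries the members' share was near that background. The number fell to 27 members without replicate 1, where 46.4% of all genes varied, and to 23 without replicate 2, where 44.8% did. It was 41 members without replicate 3, where 43.1% of all genes varied, so the share of members stood below, below and above the background in these 3 pairs of libraries.

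The members leaned one way, by little. Their median deviation from the mean over libraries was -0.08, 0.09 and -0.01 on the log2 CPM scale (counts scaled to library size) in replicates 1, 2 and 3, against -0.00, 0.01 and -0.01 for all tested protein-coding genes. Replicate 2 was the highest library for 52 of 78 members (66.7%), against 37.9% of all tested genes, and replicate 1 the lowest for 52 (66.7%), against 33.1%. Among the cytosolic ribosomal protein genes replicate 2 was the highest for 68 of 76 and replicate 3 the lowest for 67 of 76, with median deviations of -0.00, 0.18 and -0.17. Replicate 2 also had the lowest Malat1 level and the highest share of signal recognition particle RNA, and the part of either in these deviations was not tested.

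The biological coefficient of variation (BCV, from edgeR) estimates the spread between libraries beyond counting error. Each gene's value is drawn toward that of genes of like abundance, so it is not the gene's own spread alone. The BCV had a median of 0.115 over members, against 0.123 over cytosolic ribosomal protein genes and 0.102 over all tested genes. Over the 4213 tested genes in the members' abundance range it was 0.113, close to the members' own median. The members with the lowest BCV were Mrpl3, of bacterial descent, with 20.3, 20.2 and 19.7 CPM (BCV 0.082), and Mrpl39, specific to mitochondria, with 17.3, 17.2 and 17.7 CPM (BCV 0.085). Those with the highest BCV were Mrpl53 with 4.77, 7.13 and 5.82 CPM (BCV 0.188) and Mrpl46 with 4.33, 5.37 and 6.10 CPM (BCV 0.184), both mitochondria-specific large-subunit members. Mrps28 (BCV 0.178) and Mrpl55 (BCV 0.164) followed, and Mrps28 had nearly equal levels of 3.42, 3.44 and 3.74 CPM. Mrps28 also had the lowest counts of the family, 225, 236 and 264. Variation beyond counting error was not detected for it (chi-square test, Benjamini-Hochberg adjusted p = 0.60). Its BCV thus does not show that its counts varied between the libraries. Mrpl53 and Mrpl46 did vary beyond counting error (chi-square test, Benjamini-Hochberg adjusted p = 4.1e-07 and 0.00010). Exons of both overlap a gene on the opposite strand, as do those of Mrpl3 and of 28 of 78 members in all (35.9%), against 32.2% of tested genes.

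Many members share a start region with a neighbour on the other strand. A pair was counted as head to head where the annotated starts diverge, at most 1000 bp apart or overlapping by at most 50 bp. This held for 19 of 78 members (24.4%), against 11.8% of tested protein-coding genes. The median distance was 81 bp. The member was the higher gene of its pair in all 3 libraries in 12 pairs and the lower in all 3 in 7 pairs. The same split was not computed over all tested genes with such a neighbour, so it only describes these 19 pairs. Transcript lengths within a pair, by which TPM is scaled, were not compared. These pairs were chosen by position, and the partners named here were singled out after their values were seen.

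The highest of the 19 neighbours was Fau, whose start is 59 bp from that of Mrpl49 on chromosome 19. Mrpl49, a mitochondria-specific large-subunit gene, had 3.58, 2.84 and 3.28 TPM. Fau, which encodes a cytosolic small-subunit protein fused to a ubiquitin-like protein, had 625, 554 and 508 TPM. One start region thus lay between a gene of each ribosome, at levels that did not come near each other in any library. All the bases between the annotated starts, read on the strand of Mrpl49 (minus, GRCm38.p6, chr19:6057786-6057843, RefSeq promoter table), are printed to show how short the shared region is:
Mrpl49 to Fau: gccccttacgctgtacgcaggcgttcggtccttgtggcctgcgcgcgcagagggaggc

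Further pairs were picked as examples after their values were seen. Mrps12, a small-subunit protein of the decoding centre, had 14.2, 11.0 and 12.4 TPM, whereas Sars2, the mitochondrial seryl-tRNA synthetase gene that starts 172 bp away, had 1.51, 1.15 and 1.38 TPM. Mrpl36 had 14.1, 9.56 and 10.1 TPM, beside 23.2, 20.3 and 20.6 TPM for Ndufs6, a subunit of respiratory complex I whose start overlaps it by 29 bp. Mrpl32 had 9.14, 6.80 and 7.62 TPM, beside 19.1, 13.5 and 15.0 TPM for the proteasome subunit gene Psma2. Mrps18c had 20.4, 12.4 and 14.3 TPM, whereas the DNA helicase gene Helq, which starts 29 bp away, had 0.97, 0.49 and 0.83 TPM. In each of these pairs the libraries of one gene did not overlap those of the other.

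**Figure D5:**
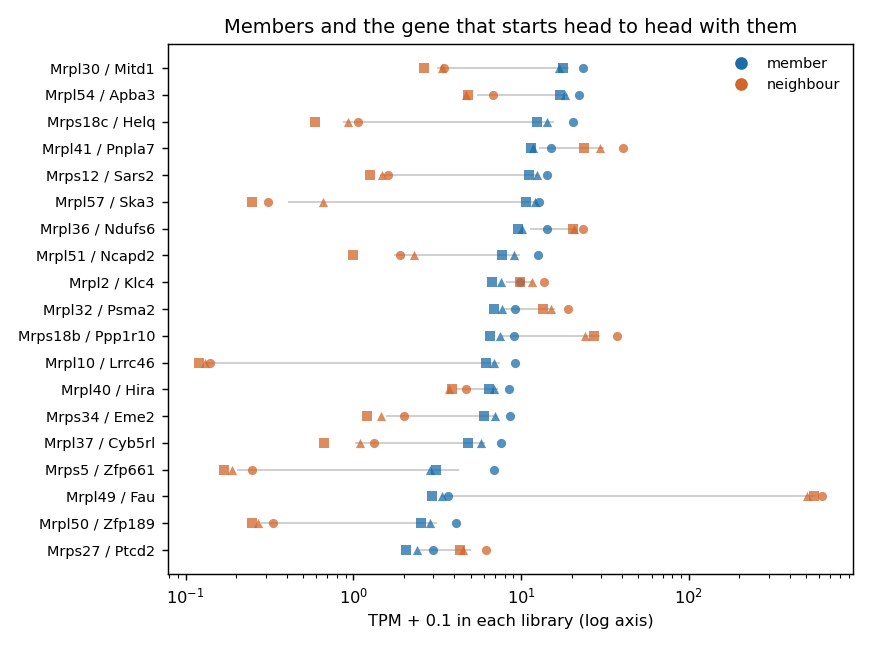
TPM + 0.1 (x axis, log scale) of the 19 members that start head to head with a neighbour and of that neighbour, one row per pair, with one point shape per replicate and a grey line between the means over 3 libraries. In 12 pairs the member is higher in all 3 libraries and in 7 the neighbour is, and Fau, the neighbour of Mrpl49, is the highest of all.

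Promoters of 69 of the 78 members were in the RefSeq table (build GRCm38.p6, 75 promoters, each 250 bases before to 50 after the start). The searched motifs are those of factors known to drive nuclear genes for mitochondrial proteins, and each was sought as exact letters on both strands. The ETS letters CCGGAAG, bound by GABP, occurred in 26 of 75 members' promoters (34.7%), against 19.7% of 9348 promoters of tested protein-coding genes and 8.86% of all 32851. The YY1 letters AAGATGGC occurred in 12 (16.0%), against 5.01 and 2.75%. The NRF1 letters GCATGCGC occurred in 8 (10.7%), against 5.68 and 2.71%. At least one of the 3 motifs was present in 38 members' promoters (50.7%), against 27.6 and 13.3%, and ETS and YY1 letters overlapped in 0 of them.

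Among 66 promoters of cytosolic ribosomal protein genes 34 (51.5%) held at least one of the 3 motifs, about the same share as among the members. The ETS letters were in 24 of them (36.4%), the YY1 letters in 7 (10.6%) and the NRF1 letters in 3 (4.55%). Other motifs were sought in the same way. The letters CCAAT of NF-Y were in 40.0% of members' promoters against 37.3%, the E-box CACGTG in 9.33% against 10.8%, TATAAA in 6.67% against 6.76%, and the Sp1 letters GGGCGG in 52.0% against 64.1%. A match is a description of the sequence and not a bound site.

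ETS letters in members' promoters lay near the start, with 26 of 31 matches (83.9%) beginning within 60 bases before it or after it, against 64.4% of matches in tested genes. YY1 letters lay mostly after the start in the direction of transcription, in 8 of 12 matches, against 46.5% in tested genes. In 8 members an ETS match with 11 bases on either side lay upstream of both the RefSeq and the GENCODE start. These 8 windows are printed from highest to lowest member, read so that the ETS letters, in capitals, run forward:
Mrpl52 (chr14:54426851-54426879, minus): tgccgggaaaaCCGGAAGccgacatcttg
Mrpl27 (chr11:94653725-94653753, plus): gtccgcaagacCCGGAAGtagatctatcc
Mrpl34 (chr8:71464878-71464906, plus): aactacagctcCCGGAAGgccccgcggca
Mrps18c (chr5:100798592-100798620, minus): cgcttcccgggCCGGAAGtcacgtgaccc
Mrpl17 (chr7:105811307-105811335, minus): gcatgctccgcCCGGAAGgcgcctcctcc
Mrpl43 (chr19:45006481-45006509, minus): tcgcggtgactCCGGAAGcaaaactctcc
Mrpl22 (chr11:58171600-58171628, plus): cttttccggtcCCGGAAGccggcctcgga
Mrps27 (chr13:99344727-99344755, minus): gcccgcctccgCCGGAAGtggtcctacca

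The 8 members with these windows ranged from Mrpl52, at a mean of 35.9 TPM, to Mrps27, at 2.38 TPM, so the same letters stood upstream of members from both ends of the range. Mrpl34 and Mrpl17 averaged 16.1 and 15.2 TPM, and Mrpl43 and Mrpl22 averaged 7.21 and 6.75 TPM. The ETS letters of Mrps18c lie in the 28 bases between its start and that of Helq. The genes for the factors themselves were expressed, with Gabpa at 8.29 ± 2.06 TPM, Gabpb1 at 6.82 ± 1.29 TPM, Yy1 at 6.94 ± 1.43 TPM and Nrf1 at 3.73 ± 0.66 TPM (SD, n = 3), none called outside the band. Nrf1 had the largest difference from the median gene among these 4, at -0.93 ± 0.07 (SE) on the log2 scale. Of the coactivators, Ppargc1a was at 0.02, 0 and 0.01 TPM and Ppargc1b at 0.57, 0.47 and 0.52 TPM. The related coactivator gene Pprc1, named after its values were seen, was at 4.25, 2.58 and 3.15 TPM and was not called outside the band. Myc, which also promotes mitochondrial biogenesis, had 14.1, 9.30 and 18.9 TPM. Together the list of 9 regulators had 0 members above, 0 below, 7 not called and 2 not tested (limma).

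The ribosomal proteins need factors, transfer RNA synthetases and assembly proteins to make a working ribosome, and these genes had lower list medians than the members. Mitochondrial ribosomal proteins that do not carry an Mrp symbol had a median of 7.88 TPM, with 1 above, 2 below and 2 not called of 5. Aurkaip1 had 20.0, 14.4 and 15.6 TPM and was above, Chchd1 had a mean of 13.7 TPM and Dap3, a GTP-binding protein of the small subunit, 7.88 TPM. Ptcd3 and Gadd45gip1, at 2.94 and 2.01 TPM, were below.

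Of 12 translation and release factors 0 were above, 7 below, 4 not called and 1, Mtrf1l at 0.867 TPM, not tested. The elongation factor gene Tufm was highest at 11.8, 7.57 and 9.32 TPM, followed by Gfm1 at 6.29 TPM and the initiation factor gene Mtif2 at 4.93 TPM. The list's median was 1.90 TPM, against 7.41 TPM for the members and 7.24 TPM for all tested genes. The list medians here and in the next paragraph include genes that were not tested, whereas all tested genes averaged at least 1 TPM.

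Of 27 assembly and ribosomal RNA modification factors 1 was above, 13 were below, 7 were not called and 6 were not tested, with a median of 1.81 TPM. The one above was C1qbp, a matrix protein, at 23.1, 17.2 and 19.3 TPM, and Rbfa and Grsf1 followed at 13.7 and 12.7 TPM. Of the 6 not tested, Mrm1, Mrm2, Mrm3, Rpusd3 and Mettl15 averaged under 1 TPM, and Trmt61b is not annotated as protein coding in the release used. Of 17 mitochondrial aminoacyl-tRNA synthetase genes 0 were above, 6 below, 5 not called and 6 not tested, with a median of 1.49 TPM. Fars2, Iars2 and Rars2 were highest at 6.44, 5.56 and 4.19 TPM, and Mars2, Pars2, Ears2, Aars2, Nars2 and Wars2 were under 1 TPM. These counts stand beside the same 26.3% above and 24.5% below over all tested genes.

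Of 7 genes for mitochondrial transcription and RNA stability 1 was above, 4 were below, 1 was not called and 1 was not tested. Slirp, which binds and stabilises mitochondrial messages, was above at 23.8, 13.9 and 14.2 TPM, its partner Lrpprc averaged 7.34 TPM, and Tfam, which packages mitochondrial DNA, 3.08 TPM. The terminator gene Mterf1a averaged 0.257 TPM.

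The messages that the mitochondrial ribosome translates were abundant in the same fraction. Of the 13 messages of mitochondrial DNA 12 were above the median gene, 0 below and 1 not called, with a list median of 208 TPM. The highest were mt-Atp8 at 1474, 1051 and 1328 TPM, mt-Co1 at 1058, 670 and 798 TPM and mt-Nd1 at 353, 242 and 306 TPM. The one not called, mt-Co2, was named after its values were seen, at 14.1 TPM in replicate 1, listed at 0 in replicate 2 and 7.32 TPM in replicate 3. It had 606, 0 and 439 counts, beside 127696, 132823 and 136244 for mt-Co1. Whether the mt-Co2 values reflect the amount of its message was not tested. The ribosomal RNAs of the organelle, mt-Rnr1 and mt-Rnr2, were at 8.50 and 5.16 TPM in these libraries depleted of ribosomal RNA, and these values say nothing of the amount of ribosome.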

How the data were processed

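The members and gene lists were chosen with earlier results of these data known, as were the tests. Per the file headers, the deposited gene and transcript tables give the expected count and TPM, with the posterior standard deviation of a count as a score of its precision, in columns named as RSEM writes them, and each transcript's percent of its gene's TPM. Another deposited transcript table, with columns named as kallisto writes them, gives the estimated count and TPM. Per the labels the build is mm10. The aligner, the quantifier versions and the strand setting were not given in the sources used here. Gene IDs were matched to GENCODE M21 (GRCm38).

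For levels, limma 3.58.1 (R 4.3.3) was used, with an intercept-only treat fit of log2(TPM + 0.1) minus the library median over protein-coding genes of at least 1 mean TPM, using a band of 1, a trended prior and a Benjamini-Hochberg threshold of 0.05. Rounded expected counts were scaled by TMM in edgeR 4.0.16 and filtered with filterByExpr, for chi-square tests and the BCV. The steps were tested on simulated data. Transcripts were aligned with Biopython 1.88. Counting precision covers sampling only, and a count of 0 allows up to 3 counts, or 0.0417 to 0.0469 CPM.

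Alternatives were another pseudocount, filter, band, rescaling, quantifier and size factor (DESeq2 1.42.0), and leaving out each library. Members named were the 8 highest and 6 lowest by TPM, the Mrps18 genes, the 4 highest and 2 lowest by BCV, those that differed by more than 1 (log2) between quantifiers and those whose call 1 library decided. From each list the 3 highest and any under 1 TPM were named, and all of the 5 ribosomal proteins without an Mrp symbol.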

Additional observations from a re-analysis of the deposited data

How the results depend on the processing

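The counts of members above and below the median gene depended on which genes set that median. Without a filter on low values the median gene fell by 1.56 on the log2 scale, and limma called 54 members above and 0 below (0 also at an unadjusted p under 0.05), beside 5388 above (35.7%) and 5921 below (39.3%) of 15075 genes. With at least 5 TPM required, 3 of 56 members were above and 8 below, sharing 0 with the 8 below at the 1 TPM minimum, which average under 5 TPM and left the test, beside 22.3% above and 8.74% below of 5620 genes. With kallisto's TPM and its own filter 3 were above and 16 below of 76, beside 24.1% above and 18.5% below of 7720 genes, whereas over the genes of the main test, an alternative chosen after seeing the data, 9 were above and 8 below. Without the band 34 were above and 30 below, beside 4203 each of all genes. Leaving out 1 library gave 7 to 10 above and 7 to 8 below, and 23 to 41 members with varying counts, with 27 without replicate 1 and 23 without replicate 2. Without the filter the levels of Mrps27, Mrps31, Mrpl35 and Mrpl50 came to 0.0051, 0.025, 0.086 and 0.34, and Mrpl53 to 1.52. Mrpl23 came to -1.77 with kallisto and to -1.42 over the genes of the main test. The calls of Mrpl42, Mrpl27, Mrpl30, Mrpl54 and Mrps15 were lost with kallisto's own filter and with the 5 TPM minimum, and those of Mrps15 and Mrpl50 with a pseudocount of 1. With kallisto over the genes of the main test Mrpl19 and Mrpl35 were no longer called. The mitochondrial minus cytosolic median was -4.80 with kallisto and -5.09 to -4.94 without 1 library. The large minus small median was 0.36 with kallisto, 0.37 with a pseudocount of 1 and 0.40 to 0.43 without 1 library. The cause of the kallisto and pseudocount differences was not tested. No paired analysis was possible because there was 1 group.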
